A study of Mus musculus with 39 samples.

Results

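The genes described here are 10 regulators of histone H3 lysine 9 (H3K9) methylation, followed over 7 groups of mouse oocytes, 2-cell embryos and cumulus cells. They were chosen by name: the methyltransferase genes Suv39h1, Suv39h2, Ehmt1, Ehmt2 and Setdb1, the corepressor gene Trim28, and the demethylase genes Kdm4a, Kdm4b, Kdm4c and Kdm4d. Through RefSeq they matched 14 of the 41174 probes of the array, namely 3 probes for Suv39h2, 2 each for Kdm4a and Kdm4c, and 1 for each of the other genes. All 14 passed the filter on low signal, which left 39517 probes in the tests.

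The study asked how trichostatin A (TSA), an inhibitor of histone deacetylases, and mRNA of the transcription factor Spi-C alter gene expression in embryos cloned by somatic cell nuclear transfer (SCNT), in which a cumulus cell nucleus is placed in an enucleated oocyte. All oocytes, embryos and cumulus cells carried the (B6xDBA/2)F1 background, and the methods give 8 to 10 weeks as the age of the females that supplied oocytes and donor cells. OC were unfertilized metaphase II oocytes (n = 7 arrays), and IVF were 2-cell embryos made by in vitro fertilization and cultured for 24 h (n = 6). TSA(-) were cumulus clones cultured for 24 h without TSA (n = 8), and TSA(+) were the same clones with 5 nM TSA for the first 8 h after activation (n = 6). Spi-C NT were cumulus clones, with no TSA named in their labels, whose cytoplasm received Spi-C mRNA at the pronuclear stage, at 1.0 mg/ml (Spi-C 1.0, n = 4) or 0.1 mg/ml (Spi-C 0.1, n = 4), and no group of clones with a control injection was analysed here. Cumulus were the donor cells (n = 4). Each array held RNA of 10 pooled oocytes or embryos, or of 500 cumulus cells, after linear amplification. The labels do not say whether the pools of a group came from separate animals or sessions, so the p-values measure the spread between these pools.

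Methylated H3K9 is the mark of heterochromatin, read by HP1 proteins. SUV39H1 and SUV39H2 place the trimethyl mark at the repeats around centromeres, EHMT1 (GLP) and EHMT2 (G9a) form a dimer that places the mono- and dimethyl marks in euchromatin, and SETDB1 is brought by TRIM28 (KAP1) and KRAB zinc finger proteins to retrotransposons. KDM4 demethylases remove the trimethyl mark. H3K9 trimethylation carried over from the donor nucleus is known as a barrier to the activation of the zygotic genome in cloned embryos, and added KDM4 demethylase is known to lower it.

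The reference promoters of 4 of the genes are shown because they belong to the results that follow: Suv39h1 and Suv39h2, the paralogs with opposite courses from oocyte to embryo, and Setdb1 and Kdm4d, the members whose promoters hold the ETS core. Sequences are from RefSeq (GRCm38.p6), upstream of an annotated start, 5′ to 3′ in the direction of the gene, with bases inside the gene left out.
Suv39h1, chrX:8074761-8075010, minus strand: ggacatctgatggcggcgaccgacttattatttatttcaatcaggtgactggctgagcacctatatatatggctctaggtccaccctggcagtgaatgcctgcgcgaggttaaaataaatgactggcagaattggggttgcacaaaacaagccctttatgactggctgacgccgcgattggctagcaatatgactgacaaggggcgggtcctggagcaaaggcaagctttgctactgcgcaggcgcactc
Suv39h2, chr2:3474987-3475236, minus strand: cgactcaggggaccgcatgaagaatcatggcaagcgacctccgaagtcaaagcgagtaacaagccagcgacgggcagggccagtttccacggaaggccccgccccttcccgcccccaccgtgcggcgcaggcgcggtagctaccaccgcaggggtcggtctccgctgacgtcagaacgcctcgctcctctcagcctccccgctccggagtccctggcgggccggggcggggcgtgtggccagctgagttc
Setdb1, chr3:95357203-95357452, minus strand: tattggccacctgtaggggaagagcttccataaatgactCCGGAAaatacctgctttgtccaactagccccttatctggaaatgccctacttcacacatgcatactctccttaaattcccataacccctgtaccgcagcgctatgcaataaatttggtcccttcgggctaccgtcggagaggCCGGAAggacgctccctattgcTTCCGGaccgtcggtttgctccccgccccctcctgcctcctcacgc
Kdm4d, chr9:14500523-14500732, minus strand: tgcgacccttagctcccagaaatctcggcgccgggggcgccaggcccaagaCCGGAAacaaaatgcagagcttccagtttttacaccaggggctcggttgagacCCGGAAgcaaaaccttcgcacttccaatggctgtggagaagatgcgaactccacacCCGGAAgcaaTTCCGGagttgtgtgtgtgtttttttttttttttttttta
Capitals mark CCGGAA on either strand, the core bound by many ETS factors, the family to which Spi-C belongs. GAGGAA, the core of the PU box that Spi-C and its nearest relatives bind, was searched on both strands too. The motifs share their last 4 letters, GGAA, and cannot overlap on the same strand. CCGGAA was found 3 times in the Setdb1 window and 4 times in that of Kdm4d. At least 1 match was thus held by 2 of the 12 windows of the members, against 12% of 32851 reference promoter windows of 250 bases. GAGGAA was found in 1 of the 12 windows of the members, an inner start of Kdm4c, against 23.3% of all windows. The Suv39h2 window was 69.6% G or C with 27 CG dinucleotides, and the outer Suv39h1 window 51.6% with 11, where the median over all windows was 52.4% with 6. Windows were found for 9 of the 10 genes, all but Kdm4b. A match is a match of letters only.

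In GRCm38.p6 the genes lie at chrX:8061171-8074760 (Suv39h1), chr2:3455815-3474986 (Suv39h2), chr2:24790769-24919643 (Ehmt1), chr17:34898463-34914073 (Ehmt2), chr3:95323525-95357202 (Setdb1), chr7:13024152-13031032 (Trim28), chr4:118136957-118180090 (Kdm4a), chr17:56325970-56403774 (Kdm4b), chr4:74242497-74405864 (Kdm4c) and chr9:14462548-14500522 (Kdm4d). The position of a probe within its gene was not used here.

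Levels are log2 of the processed signal minus the 75th percentile of the same array, so 0 is that percentile and 1 unit is a doubling. Levels of different probes are not compared, since probes differ in brightness, and a gene is represented by its brightest probe unless another is named. That percentile was 282 to 534 signal units on OC arrays, 1031 to 1623 on IVF, TSA(-) and TSA(+) arrays, 2145 to 2713 on Spi-C NT arrays and 815 to 1122 on Cumulus arrays. All 12 oocyte markers were well above background on every OC array and 8 of them on no Cumulus array. All 12 were so on every IVF and Spi-C NT array too, and 11 on every TSA(-) and TSA(+) array. By this call they do not separate oocytes from embryos. All 12 cumulus markers were well above background on every Cumulus array, and 7 or 8 of them also on every array of the 3 uninjected embryo groups. On every array of the other groups 5 were so in OC, 10 in Spi-C 1.0 and 9 in Spi-C 0.1. OC, IVF, TSA(-) and TSA(+) arrays shared scanner and software over 9 slides and 5 scan days. Cumulus and Spi-C NT arrays were read on another scanner with later software on slides of their own, so this batch and the group cannot be told apart in any comparison of them with other groups. In pooled samples, fewer cells of a type and less RNA per cell cannot be told apart either.

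**Figure D1:**
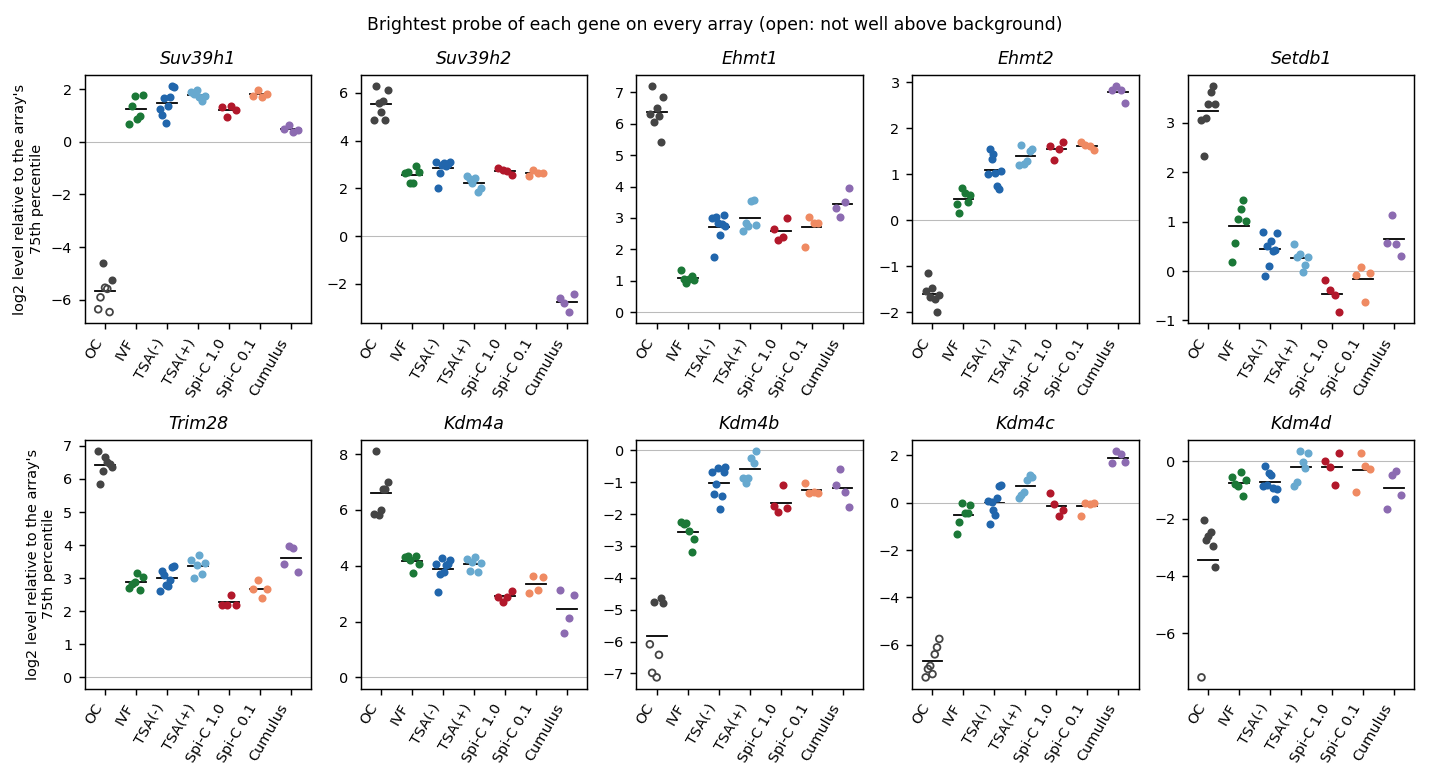
Log2 level of the brightest probe of each of the 10 genes (vertical axis, relative to the 75th percentile of the array) on all 39 arrays in the 7 groups (horizontal axis). Points are arrays, open where the probe was not well above background, and lines are group means. OC arrays stand apart from IVF arrays for every gene, above them for Suv39h2, Ehmt1, Setdb1, Trim28 and Kdm4a and below them for Suv39h1, Ehmt2, Kdm4b, Kdm4c and Kdm4d.

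The comparison of OC with IVF embryos followed the passage from maternal to embryonic transcripts. Of the 14 probes, 13 differed at an adjusted p under 0.01 (limma, Benjamini-Hochberg over all probes), 7 higher and 6 lower in IVF. The background was high, since 65.9% of all probes passed, 23.4% higher and 42.5% lower. OC and IVF arrays did not overlap for 12 of the 14 probes, against 51.7% of all probes. By brightest probe all 10 genes passed, 5 in each direction, with a median difference of -0.13 against -0.87 over all probes. The median of all probes moved to -0.29 under quantile normalization, -1.59 with arrays centred on their median and -1.28 under normexp background correction. By brightest probe each of the 10 genes kept its direction under these scalings. Over all 14 probes the calls were 8 higher and 5 lower under quantile normalization and 4 higher and 7 lower under normexp.

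The SUV39 paralogs moved in opposite directions. Suv39h1 had log2 levels of -6.47, -5.59 and -4.59 (lowest, median, highest) in OC, where it was well above background on 2 of 7 arrays. In IVF embryos the levels were 0.66, 1.16 and 1.79, well above background on all 6 arrays. The groups lay far apart, and Suv39h1 rose (log2 difference 6.90 ± 0.26, SE, adjusted p = 8.6e-20). As 5 of the 7 OC arrays were not well above background, the size of this rise is uncertain and no fold is given.

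Suv39h2 was at 4.86, 5.59 and 6.29 in OC and at 2.20, 2.66 and 2.93 in IVF. Every IVF array was below every OC array, and the transcript fell by 2.95 on the log2 scale (SE 0.22, adjusted p = 1.0e-12), 7.75-fold. Under quantile normalization the fall was smaller, with a difference of -1.26. In donor cumulus cells Suv39h2 was at -2.57, -2.79, -3.18 and -2.43, far below oocytes and all embryos, with a difference of 8.26 ± 0.25 between OC and Cumulus (adjusted p = 1.9e-22).

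The 3 Suv39h2 probes did not give the same account of the oocyte. The dimmest (A_52_P187046) fell like the brightest (A_52_P16931), by 2.44 on the log2 scale from OC to IVF. The middle one (A_51_P419169) was at 0.49 ± 0.26 (SD) in OC and 0.87 ± 0.18 in IVF, a difference of 0.37 with a 95% interval of -0.05 to 0.79 (adjusted p = 0.10). All 3 probes were lowest in Cumulus, where A_52_P187046 was not well above background on any of 4 arrays. Its level in OC was at least 597-fold higher than the lowest signals called well above background on the Cumulus arrays, and that in IVF at least 110-fold higher.

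The transcripts of the partners EHMT1 and EHMT2 also went opposite ways. Ehmt1 was at 5.42, 6.32 and 7.21 in OC and at 0.93, 1.04 and 1.33 in IVF, with no overlap. It fell by 5.28 on the log2 scale (SE 0.24, adjusted p = 1.0e-17), 39-fold, and the difference relative to the median of all probes was -4.42. Over the alternative ways of processing, the log2 difference of Ehmt1 between IVF and OC ranged from -6.01 to -3.45. Ehmt2 was at -2.0, -1.63 and -1.14 in OC and at 0.16, 0.47 and 0.69 in IVF. Every IVF array was above every OC array, and Ehmt2 rose by 2.05 ± 0.15 (adjusted p = 7.5e-13), 4.15-fold.

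Setdb1 and its recruiter Trim28 fell together. Setdb1 was at 2.33, 3.37 and 3.74 in OC and at 0.18, 1.02 and 1.43 in IVF, a fall of 4.98-fold (log2 difference -2.32 ± 0.21, adjusted p = 7.7e-11). Trim28 was at 5.84, 6.45 and 6.84 in OC and at 2.64, 2.86 and 3.15 in IVF, a fall of 11.6-fold (log2 difference -3.54 ± 0.17, adjusted p = 4.0e-17). Neither gene had an IVF array within the range of the OC arrays. The size of both falls depended on the processing. Over the alternatives run, the log2 difference ranged from -3.04 to -1.38 for Setdb1 and from -4.27 to -1.59 for Trim28.

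Among the demethylases, the brightest Kdm4a probe fell and the other 3 genes rose. Kdm4a (A_52_P281209) was at 5.82, 6.74 and 8.10 in OC and at 3.75, 4.26 and 4.34 in IVF, a difference of -2.44 ± 0.29 (adjusted p = 1.3e-08). Under quantile normalization this difference was -0.42 and did not pass (limma adjusted p = 0.20). The second Kdm4a probe (A_52_P633988), dim and well above background on 2 of 7 OC arrays, rose by 3.45 ± 0.62 (adjusted p = 1.3e-05). The mean of both probes differed by 0.51 (adjusted p = 0.21), so the direction of Kdm4a depends on the probe.

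Kdm4c (A_51_P150354) was well above background on no OC array, with log2 levels of -7.39, -6.90 and -5.76. In IVF it was at -1.31, -0.44 and -0.01, well above background on all 6 arrays. Measured against the lowest signals called well above background on the OC arrays, Kdm4c was at least 26.7-fold higher in IVF with this scaling. The limma adjusted p of 9.1e-18 belongs to the measured log2 difference of 6.175, whose size is uncertain. Over the alternatives run that difference ranged from 2.21 to 6.74. The second Kdm4c probe (A_52_P320170) was also well above background on no OC array, and its mean in IVF (-5.28) lay at the lowest signals so called on OC arrays (-5.25), so no fold is given. It passed the test (adjusted p = 2.8e-05) with overlapping ranges.

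Kdm4b was at -7.12, -6.09 and -4.63 in OC, well above background on 3 of 7 arrays, and at -3.19, -2.41 and -2.24 in IVF. It rose (log2 difference 3.27 ± 0.36, adjusted p = 2.3e-09) without overlap, by a size that is uncertain for the same reason as that of Suv39h1. Under normexp, which compresses dim signals, the difference was 0.38 and did not pass (adjusted p = 0.058). Kdm4d was at -7.53, -2.76 and -2.04 in OC and at -1.21, -0.72 and -0.39 in IVF. It rose by 2.69 ± 0.53 (adjusted p = 4.3e-05), and without OC replicate 1, which alone lay at -7.53 and below background, by 2.01 (adjusted p = 1.4e-07).

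**Figure D2:**
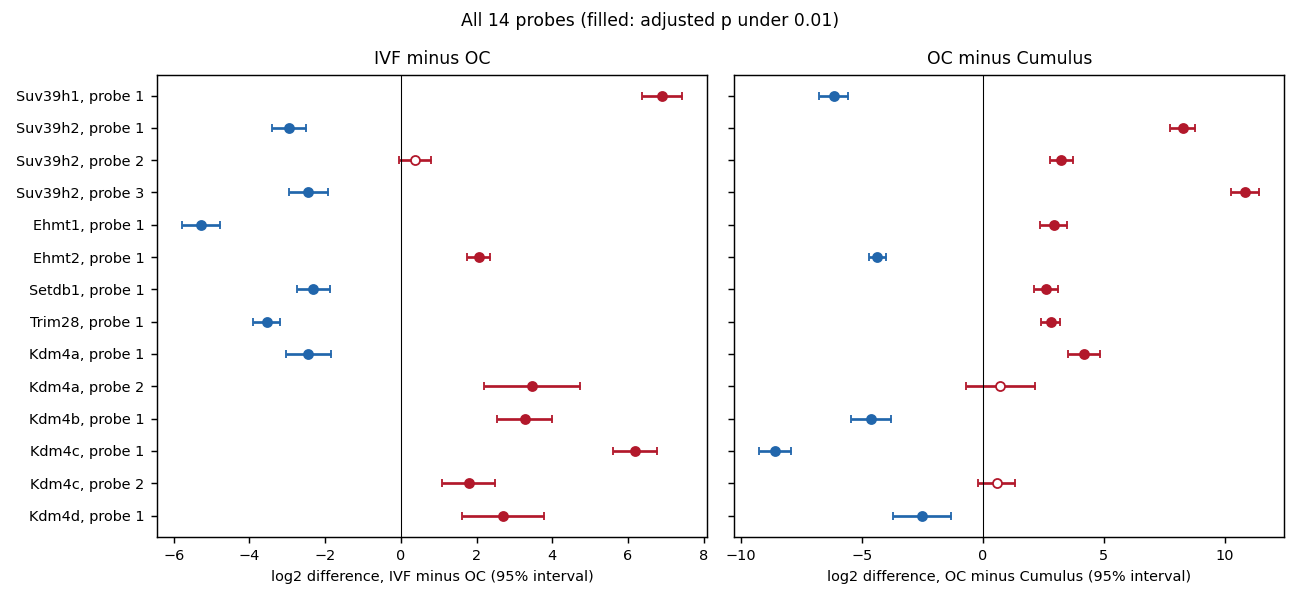
Log2 difference with its 95% interval (horizontal axis) for all 14 probes (rows, numbered from the brightest within a gene) between IVF and OC (left) and between OC and Cumulus (right). Filled points passed an adjusted p of 0.01, red is positive and blue negative. In IVF minus OC, 7 probes passed above 0 and 6 below, and the second Suv39h2 probe at 0.37 did not pass.

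The difference between cumulus donor cells and oocytes divided the genes into the same 2 sets by direction. Of the 14 probes 12 passed, 7 higher in OC and 5 lower, against 67.5% of all probes, 43.9% higher and 23.6% lower. The groups did not overlap for 12 of the 14, against 65.1% of all probes. By brightest probe Suv39h2, Ehmt1, Setdb1, Trim28 and Kdm4a were higher in OC, and Suv39h1, Ehmt2, Kdm4b, Kdm4c and Kdm4d were higher in Cumulus. This comparison shares the OC arrays with the previous one. Ehmt2 was at 2.83, 2.92, 2.82 and 2.54 in Cumulus, 20.7-fold above OC (adjusted p = 1.0e-19). By its brightest probe Kdm4c was at 1.67, 2.18, 2.07 and 1.70 in Cumulus. With this scaling that was at least 143-fold above the lowest signals called well above background on the OC arrays. Over the alternatives run, OC minus Cumulus for Kdm4c ranged from -9.17 to -4.02 on the log2 scale. The second Kdm4c probe did not share this difference. It was well above background on no OC or Cumulus array, with OC minus Cumulus at 0.56 (limma adjusted p = 0.18). The other probe that did not pass was the second Kdm4a probe (0.71, adjusted p = 0.35). Suv39h1 was at 0.50, 0.66, 0.39 and 0.46, above all 7 OC arrays, of which 2 were well above background (adjusted p = 7.1e-18).

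**Figure D3:**
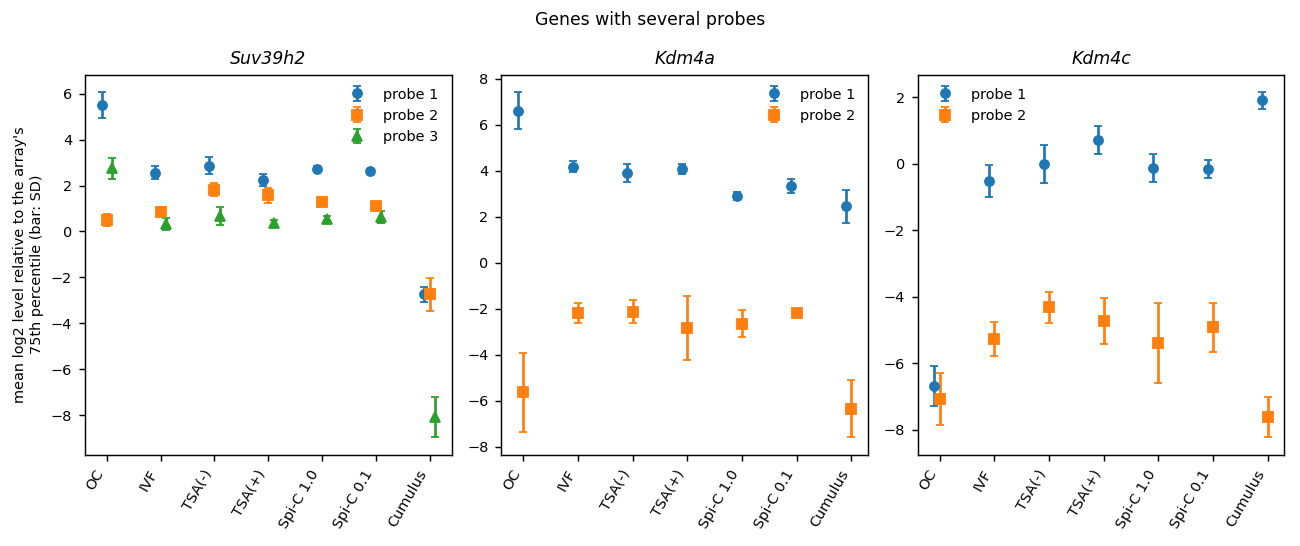
Mean log2 level with SD (vertical axis) in each of the 7 groups (horizontal axis) for the probes of Suv39h2, Kdm4a and Kdm4c, numbered from the brightest. From OC to IVF the 2 Kdm4a probes move in opposite directions, -2.44 and 3.45, and the second Suv39h2 probe does not follow the other 2.

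Clones without TSA passed the same boundary. All 14 probes differed between TSA(-) and OC, 8 higher and 6 lower, against 69.9% of all probes, 23.6% higher and 46.3% lower. None of the 14 overlapped between the groups, against 48% of all probes without overlap. Under quantile normalization 8 were higher and 5 lower, and under normexp 6 were higher and 7 lower. Suv39h1 rose from its dim level in OC (adjusted p = 5.0e-21), and Ehmt1 fell by 3.65 on the log2 scale (SE 0.23). With this scaling Kdm4c was at least 38.2-fold above the lowest signals called well above background on the OC arrays. Its log2 difference from OC ranged from 2.69 to 7.28 over the alternatives run. The second Suv39h2 probe, which did not pass in IVF, rose by 1.32 ± 0.19 in TSA(-) (adjusted p = 4.0e-07). OC arrays are shared by both comparisons.

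The comparison of TSA(-) clones with IVF embryos asked which members differ in cloned embryos. Of the 14 probes 4 passed and all 4 were higher in TSA(-), against 18.6% of all probes, 8.68% higher and 9.94% lower. Those that passed were Ehmt1, Kdm4b, Ehmt2 and the second Suv39h2 probe. All but Ehmt2 were without overlap, 3 of the 14 against 14.7% of all probes. The median of the 10 genes was 0.28, and that of all probes -0.03. Suv39h1, Trim28, Kdm4a, Kdm4c, Kdm4d and Setdb1 did not pass by brightest probe, while the means over probes passed for Kdm4c (0.74, adjusted p = 0.0080) and Suv39h2 (0.54, adjusted p = 0.0094). The median of all probes was -0.21 under normexp.

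Ehmt1, lower in IVF than in any other group, was at 1.75, 2.83 and 3.1 in TSA(-) against 0.93, 1.04 and 1.33 in IVF. The ranges did not overlap, and the difference was 1.63 ± 0.24 (3.1-fold, adjusted p = 4.5e-06). Within the 4 scan days that held both groups it was 1.56, 1.84, 2.08 and 0.42. Ehmt2 was at 0.67, 1.04 and 1.54 in TSA(-) against 0.16, 0.47 and 0.69 in IVF, with ranges that overlapped and a difference of 0.64 ± 0.15 (1.56-fold, adjusted p = 0.0015). Within scan days it was 0.63, 0.46, 0.12 and 1.19. The transcripts of both subunits of the euchromatic enzyme were therefore higher in these clones, although from oocyte to IVF embryo one had fallen and the other risen. The arrays measure RNA and not protein.

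Kdm4b was at -1.83, -0.87 and -0.52 in TSA(-) against -3.19, -2.41 and -2.24 in IVF. The difference was 1.54 ± 0.35 (2.90-fold, adjusted p = 0.0011) and the groups did not overlap. Within scan days it was 1.42, 1.64, 2.10 and 0.88, and with slide as a block 1.26, which did not pass (limma adjusted p = 0.070). Under quantile normalization it was 1.62 and just missed the threshold (limma adjusted p = 0.011). The second Suv39h2 probe was at 1.81 ± 0.29 (SD) in TSA(-) and 0.87 ± 0.18 in IVF, a difference of 0.94 ± 0.20 (adjusted p = 5.2e-04), which the brightest probe did not share (0.30 ± 0.22, adjusted p = 0.35). With slide as a block this probe did not pass, since the 2 that did were Ehmt1 and Ehmt2.

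Intervals follow for Kdm4d, Suv39h1 and Setdb1, 3 of the members with 1 probe each. Suv39h2, whose second probe passed, is described above. Kdm4d differed by 0.00 between TSA(-) and IVF with a 95% interval of -1.04 to 1.05, in a fit that held the OC arrays with their SD of 1.87. Suv39h1 differed by 0.26 with an interval of -0.25 to 0.77. Setdb1 differed by -0.47 with an interval of -0.90 to -0.05 (adjusted p = 0.094). None of the 3 passed, and each interval leaves room for a difference in level.

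**Figure D4:**
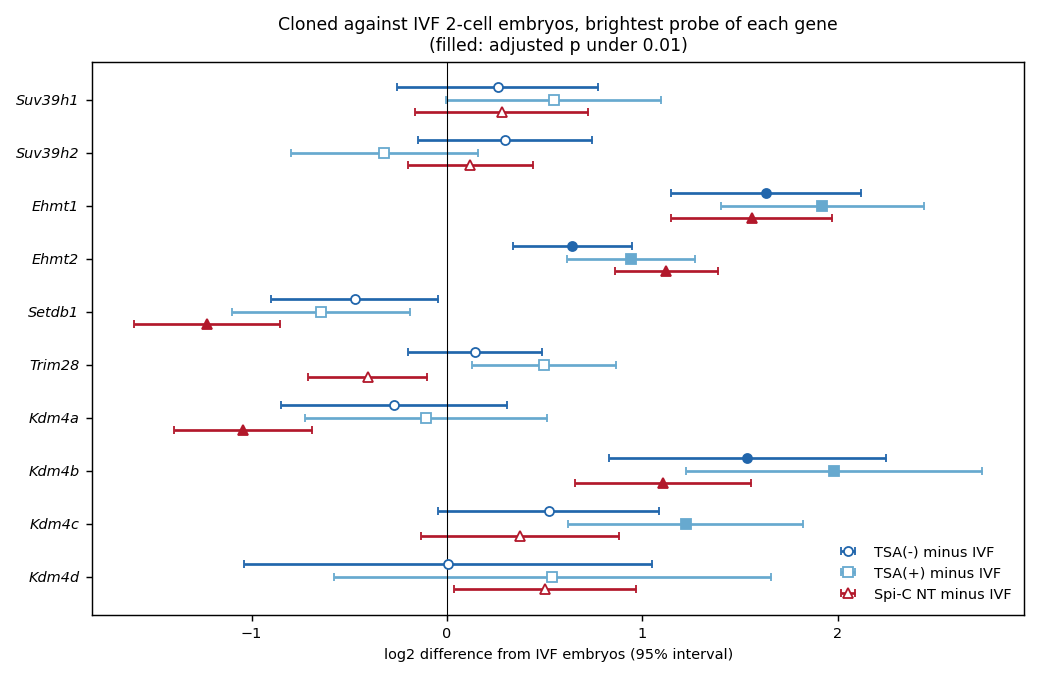
Log2 difference from IVF embryos with its 95% interval (horizontal axis) for the brightest probe of the 10 genes (rows) in TSA(-), TSA(+) and Spi-C NT clones. Filled symbols passed an adjusted p of 0.01. Ehmt1, Ehmt2 and Kdm4b were higher than in IVF in all 3 clone groups, which share the 6 IVF arrays.

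TSA(+) clones were set against the same IVF arrays. Again 4 of 14 probes passed, all higher, against 18.8% of all probes, 8.02% higher and 10.8% lower. Without overlap were 5 of the 14, against 20.1% of all probes. Ehmt1 differed by 1.92 ± 0.25 (3.79-fold, adjusted p = 1.1e-06), Kdm4b by 1.98 ± 0.37 (3.95-fold, adjusted p = 1.4e-04), Ehmt2 by 0.94 ± 0.16 (1.92-fold, adjusted p = 4.1e-05) and Kdm4c by 1.22 ± 0.29 (2.33-fold, adjusted p = 0.0021). Kdm4c was at 0.21, 0.69 and 1.19 in TSA(+) and at -1.31, -0.44 and -0.01 in IVF, with no overlap. Within the 3 scan days that held both groups the Kdm4c difference was 1.19, 0.85 and 1.89. Under quantile normalization it was 1.32 and missed the threshold (limma adjusted p = 0.017). Trim28 (0.50, adjusted p = 0.037) passed under quantile normalization (0.60) and with median centring (0.73), and Setdb1 (-0.65, adjusted p = 0.028) passed without IVF replicate 1 (-0.79, adjusted p = 0.0074).

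Whether TSA changed these genes was tested directly between TSA(+) and TSA(-). By limma 0 of 14 probes passed, against 0.137% of all probes. At an unadjusted p under 0.05 there were 3, and Tukey's HSD after a one-way model called 0. The 3 were Kdm4c, higher by 0.70 ± 0.28 in TSA(+) (95% interval 0.14 to 1.26, adjusted p = 0.19), the brightest Suv39h2 probe, lower with a difference of -0.62 ± 0.22 (interval -1.06 to -0.17, adjusted p = 0.15), and Trim28, with 0.35 ± 0.17 (interval 0.01 to 0.70, adjusted p = 0.29). The share of all probes at that unadjusted threshold was 16.3%. Kdm4d, higher by 0.53 ± 0.51 in TSA(+) (interval -0.51 to 1.58, adjusted p = 0.64), was not among the 3. Its fit held the OC arrays with their SD of 1.87, and the interval leaves room for a difference in level. Kdm4c was at -0.91, 0.05 and 0.75 in TSA(-) and Suv39h2 at 2.01, 3.01 and 3.12 in TSA(-) against 1.86, 2.31 and 2.51 in TSA(+). All 14 probes overlapped between the groups, where 1.47% of all probes did not. That Kdm4c passed against IVF in TSA(+) and not in TSA(-) is therefore not shown to be a difference between the clones. The second Kdm4c probe had the opposite sign between the clones (-0.42 ± 0.33) and did not pass in TSA(+) against IVF (0.54, limma adjusted p = 0.27).

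For Spi-C NT the comparison was with TSA(-), the clones without injection, and scanner and group cannot be told apart in it. Of the 14 probes 5 passed, 1 higher and 4 lower, against 21% of all probes, 12% higher and 9% lower. With both doses as 1 group, Ehmt2 was higher, and Kdm4a, Setdb1, Trim28 and the second Suv39h2 probe were lower. In the fit of 7 groups that Suv39h2 probe passed at neither dose alone (limma adjusted p = 0.083 at 1.0 mg/ml and 0.014 at 0.1 mg/ml). The 5 changes were under 2-fold and every one of the 14 probes overlapped between the groups, where 9.48% of all probes did not. The median of the 10 genes was -0.16 and that of all probes 0.14. The latter became -0.04 with arrays centred on their median and -0.25 under normexp.

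Kdm4a was at 2.89, 2.70, 2.89 and 3.11 in Spi-C 1.0 and at 3.04, 3.64, 3.13 and 3.58 in Spi-C 0.1, against 3.06, 4.04 and 4.28 in TSA(-). The difference was -0.77 ± 0.16 (adjusted p = 5.0e-04), and the mean of both Kdm4a probes gave -0.53, which did not pass (limma adjusted p = 0.092). In the fit of 7 groups Kdm4a passed at neither dose alone. TSA(-) minus Spi-C 1.0 was 1.00 (limma adjusted p = 0.016) and TSA(-) minus Spi-C 0.1 was 0.55 (adjusted p = 0.23). Setdb1 was at -0.19, -0.39, -0.49 and -0.83 in Spi-C 1.0 and at -0.08, 0.08, -0.62 and -0.03 in Spi-C 0.1, against -0.09, 0.46 and 0.79 in TSA(-). The difference was -0.75 ± 0.17 (adjusted p = 0.0010) with both doses as 1 group. All arrays of the 1.0 mg/ml dose lay below the TSA(-) range, and those of the 0.1 mg/ml dose overlapped it. In the fit of 7 groups, TSA(-) minus Spi-C 1.0 was 0.91 (limma adjusted p = 0.0039). TSA(-) minus Spi-C 0.1 was 0.60 and did not pass (adjusted p = 0.064), and neither did the difference between the doses.

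Trim28, the recruiter of SETDB1, was at 2.19, 2.20, 2.50 and 2.18 in Spi-C 1.0 and at 2.66, 2.95, 2.40 and 2.69 in Spi-C 0.1, against 2.62, 3.03 and 3.37 in TSA(-). The difference was -0.55 ± 0.14 (adjusted p = 0.0028) with both doses as 1 group. In the fit of 7 groups, TSA(-) minus Spi-C 1.0 was 0.75 for Trim28 (limma adjusted p = 0.0025). TSA(-) minus Spi-C 0.1 was 0.35 and did not pass (adjusted p = 0.20). Ehmt2 was at 1.61, 1.31, 1.56 and 1.69 in Spi-C 1.0 and at 1.69, 1.64, 1.60 and 1.52 in Spi-C 0.1, 1.39-fold above TSA(-) (0.48 ± 0.12, adjusted p = 0.0028). With arrays centred on their median the Ehmt2 difference was 0.30 and did not pass (limma adjusted p = 0.068). In the fit of 7 groups Ehmt2 passed at neither dose alone (limma adjusted p = 0.042 at 1.0 mg/ml and 0.018 at 0.1 mg/ml). Kdm4d differed by 0.50 ± 0.21 and did not pass (adjusted p = 0.074).

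Against IVF, 5 of 14 probes passed in Spi-C NT, 3 higher and 2 lower, against 36.3% of all probes, 19.6% higher and 16.7% lower. Ehmt1 (1.56 ± 0.20, adjusted p = 3.6e-07), Ehmt2 (1.12 ± 0.13, adjusted p = 5.7e-08) and Kdm4b (1.11 ± 0.22, adjusted p = 1.5e-04) were higher, as in the other clones. Kdm4a (-1.04 ± 0.17, adjusted p = 1.5e-05) and Setdb1 (-1.23 ± 0.18, adjusted p = 3.1e-06) were lower, although the mean of both Kdm4a probes gave -0.64 and did not pass (limma adjusted p = 0.040). In the fit of 7 groups Kdm4b did not pass at 1.0 mg/ml (IVF minus Spi-C 1.0 -0.91, limma adjusted p = 0.062). Kdm4a did not pass there at 0.1 mg/ml (IVF minus Spi-C 0.1 0.82, adjusted p = 0.040). Trim28 (-0.41, adjusted p = 0.025) passed under normexp (-0.50) and without Spi-C 0.1 replicate 2 (-0.47). None of the 5 probes that passed overlapped between the groups, against 24.8% of all probes without overlap.

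The doses of Spi-C mRNA were compared on 2 slides that each held both. By limma 0 of 14 probes passed, against 0.00506% of all probes, with 3 at an unadjusted p under 0.05, against 4.08% of all probes, and 0 by Tukey's HSD. Those 3 were lower at 1.0 mg/ml, namely Suv39h1 by -0.60 (95% interval -1.14 to -0.07), Kdm4a by -0.45 (-0.89 to -0.01) and Trim28 by -0.41 (-0.78 to -0.04), each at a limma adjusted p that rounds to 1.00. Suv39h1 was at 1.32, 0.94, 1.36 and 1.22 at the higher dose and at 1.74, 1.98, 1.71 and 1.82 at the lower. It was the single probe of the 14 without overlap, against 3.38% of all probes.

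The 7 groups were put in order of mean level, and neighbours in that order were tested in 1 fit of all groups. Groups further apart can differ although no neighbours between them passed, so such groups are not shown to be level. Examples are Kdm4a in IVF minus Cumulus (1.72, limma adjusted p = 9.5e-06) and Setdb1 in IVF minus Spi-C 1.0 (1.38, adjusted p = 2.1e-05). Others are Suv39h1 in TSA(+) minus Cumulus (1.28, adjusted p = 1.2e-04) and Kdm4b in IVF minus TSA(+) (-1.98, adjusted p = 2.4e-05). For Suv39h1, Kdm4b, Kdm4c and Kdm4d the step that passed at the bottom was between OC and the next group, which was Cumulus for Suv39h1 and Kdm4d and IVF for Kdm4b and Kdm4c. No other neighbours passed for Suv39h1, Kdm4b or Kdm4d, and for Kdm4c a second step set Cumulus (1.90 ± 0.26, SD) above TSA(+) (0.70 ± 0.42, adjusted p = 0.0011). Kdm4a and Setdb1 had OC at the top and no other neighbouring pair that passed. Suv39h2 had OC at the top (5.51 ± 0.57), Cumulus at the bottom (-2.74 ± 0.33) and the 5 embryo groups between, from 2.24 ± 0.26 in TSA(+) to 2.86 ± 0.38 in TSA(-). These orders are of the brightest probes. The second probes of Suv39h2 and Kdm4a had TSA(-) at the top and OC below all embryo groups, next above Cumulus. For that Kdm4a probe the step from TSA(+) down to OC passed (limma adjusted p = 4.5e-05).

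Ehmt1 had OC at the top (6.37 ± 0.57) and IVF alone at the bottom (1.08 ± 0.14), and the step from IVF to the next group, Spi-C 1.0 (2.59 ± 0.31), passed (adjusted p = 4.9e-05). Trim28 had OC alone at the top. Ehmt2 climbed from OC (-1.60 ± 0.26) to IVF (0.46 ± 0.19), to TSA(-) (1.1 ± 0.32) and, past TSA(+) and the Spi-C groups, to Cumulus (2.78 ± 0.16). The steps from OC to IVF, from IVF to TSA(-) and from Spi-C 0.1 to Cumulus passed, at adjusted p = 2.5e-15, 3.8e-04 and 6.5e-07. By mean of the brightest probe, all clone groups lay between IVF and Cumulus for Ehmt1, Ehmt2, Kdm4a and Kdm4c. They lay above both for Kdm4d and below both for Setdb1. The clone groups were divided for Suv39h1, Suv39h2, Kdm4b and Trim28, and also for the second Kdm4a probe. The same position was not counted over all probes. For Ehmt1 no clone group differed from Cumulus at 0.01 (adjusted p from 0.013 to 0.16), for Kdm4c only TSA(+) passed against IVF, and the second Kdm4c probe was lowest in Cumulus (-7.62). The mean log2 level of the 12 cumulus markers ran from -3.77 to -2.66 on IVF arrays and from 2.95 to 3.12 on Cumulus arrays. In uninjected clones it ran from -3.73 to -2.83 on TSA(-) arrays and from -4.40 to -2.81 on TSA(+) arrays. In injected clones it ran from -3.77 to -3.05 on Spi-C 1.0 arrays and from -3.73 to -3.16 on Spi-C 0.1 arrays. These are means over the markers, and carry-over of single donor cell transcripts was not tested.

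The genes whose levels followed a member most closely over the 39 arrays were named among 23569 probes well above background on every array of at least 1 group. For Suv39h1 they were Kpna1 (Pearson r = 0.993), Wdr77 (0.991) and Hexim1 (0.990). For Suv39h2 they were Pter (0.990), Cul1 (0.989) and Aspm (0.988), and for Kdm4d they were Clk4 (0.932), Mief1 (0.915) and Zscan12 (0.912). Among the members, Pearson r ran from -0.94 (Suv39h1 and Trim28) to 0.93 (Kdm4c and Suv39h1). The arrays share slides and fall into separate groups, so these values describe the differences between groups.

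A wider list of 41 genes of H3K9 methylation, of which 39 had a probe, was examined by brightest probe. In IVF against OC 36 genes passed, 14 higher and 22 lower, with a median of -1.26 against -0.87 over all probes. Of all probes 65.9% passed, 23.4% higher and 42.5% lower. Cbx3, which encodes HP1 gamma, rose by 6.17 on the log2 scale. Zfp809, a KRAB zinc finger gene known for retroviral silencing, and Kmt5b, a methyltransferase of H4K20, also rose, each from a level at which 1 of 7 OC arrays was well above background. Their measured differences of 9.58 and 6.79 are therefore uncertain in size. The largest falls in the list were of the demethylase genes Kdm1a (-4.39) and Kdm3b (-4.30) and of the chromatin remodeller gene Smarcad1 (-4.24). Higher and lower were 1 and 5 of 7 other demethylases, 2 and 5 of 8 readers, 8 and 11 of 19 cofactors and 3 and 1 of 5 other methyltransferases. Differences between these roles were not tested.

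In TSA(-) against IVF 10 of the 39 genes passed, 7 higher and 3 lower, against 18.6% of all probes, 8.68% higher and 9.94% lower. The median was 0.12 against -0.03 over all probes. Cbx5, which encodes HP1 alpha, was higher by 1.93 ± 0.21 (3.80-fold, adjusted p = 3.1e-08), Kmt5b by 1.5 ± 0.41 and Morc3 by 1.1 ± 0.20. Zfp809 (-1.57 ± 0.35), Wiz (-0.95 ± 0.16), which encodes a partner of the EHMT1 and EHMT2 dimer, and Uhrf1 (-0.52 ± 0.13) were lower. In TSA(+) against IVF 11 passed, 8 higher and 3 lower, against 18.8% of all probes, 8.02% higher and 10.8% lower, with Cbx5 at 1.97 ± 0.22, Kmt5b at 1.52 ± 0.43 and Morc3 at 1.45 ± 0.22 above IVF. Zfp57 (-1.22 ± 0.33), Uhrf1 (-0.65 ± 0.14) and Cbx1 (-0.64 ± 0.15) were lower there.

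Between TSA(+) and TSA(-) 0 of the 39 genes passed by limma, with 9 at an unadjusted p under 0.05, against 16.3% of all probes. In Spi-C NT against TSA(-) 16 passed, 6 higher and 10 lower, against 21% of all probes, 12% higher and 9% lower. Kmt5c (1.00 ± 0.10), Wiz (0.98 ± 0.16) and Lbr (0.58 ± 0.11) were higher, and Tasor (-1.41 ± 0.20), Hdac2 (-1.15 ± 0.14) and Cdyl (-1.04 ± 0.15) were lower. Wiz, lower in TSA(-) than in IVF, was at 1.43 in Spi-C NT, 0.44 in TSA(-) and 1.40 in IVF on the log2 scale. Zfp809, also lower in TSA(-) than in IVF, was at 2.15 in Spi-C NT, 2.53 in TSA(-) and 4.10 in IVF. Scanner and group cannot be told apart in comparisons with Spi-C NT. Against IVF 24 passed in Spi-C NT, 11 higher and 13 lower, against 36.3% of all probes, 19.6% higher and 16.7% lower, again with Cbx5 (1.73 ± 0.14) higher and Zfp809 (-1.94 ± 0.23) lower. Between the doses of Spi-C 0 of the 39 genes passed by limma, with 1 at an unadjusted p under 0.05, against 4.08% of all probes. In OC against Cumulus 35 passed, 25 higher and 10 lower in OC, against 67.5% of all probes, 43.9% higher and 23.6% lower. Among them Dppa3 (12.10) and Uhrf1 (8.21) were higher and Cbx3 (-6.52) lower in OC. Zfp57, well above background on 1 of 4 Cumulus arrays, was higher in OC, and Kmt5b and Zfp809, each so on 1 of 7 OC arrays, were lower, by sizes that are uncertain. In TSA(-) against OC 34 passed, 13 higher and 21 lower, against 69.9% of all probes, 23.6% higher and 46.3% lower. Cbx3 (6.30) rose, as did Kmt5b and Zfp809 from their dim levels in OC, and Uhrf1 (-4.41), Kdm1a (-3.90) and Smarcad1 (-3.89) fell.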

How the data were processed

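Total RNA was linearly amplified, labelled with Cy3 and hybridized to Agilent 4 x 44K mouse arrays, 1 sample per array. The authors deposited the output of Agilent Feature Extraction 9.5.3.1 (10.5.1.1 in the headers of Cumulus and Spi-C arrays), whose processed signal is an intensity with local background subtracted. They also deposited a table of log2 values, relative to the 75th percentile and to each probe's median (correlation with the scanner values at least 0.9996, column medians from -0.3 to 1.08), used as an alternative. Here log2 of the processed intensity was taken and the array's own 75th percentile subtracted. Spots marked as outliers were left out, after which 1820 values of a probe on an array were missing. Probes reaching 10 units on at least 1 embryo array (39517) were tested. Probes were named through RefSeq (GRCm38.p6).

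Tests were run in R 4.3.3 with limma 3.58.1 (lmFit, eBayes), with Benjamini-Hochberg adjustment over all probes and a threshold of 0.01. OC, IVF, TSA(-), TSA(+) and Cumulus entered 1 fit, IVF, TSA(-), TSA(+) and Spi-C NT another, and the same groups with the Spi-C doses apart the last. Errors are SE for differences and SD for levels. Scripts were tested on simulated data. "Well above background" is the scanner software's call. All probes of the members were reported, with the brightest over the 39 arrays standing for its gene. From the wider list, up to 3 genes in each direction with the largest change among those passing were named, and for 3 members the 3 most correlated genes. Members and lists were chosen with earlier results of these data known. Alternatives were other scalings, background correction, filters, thresholds, Tukey's HSD, slide, scan day or replicate number as a block, and leaving out each array. The number of arrays limits the precision.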

Additional observations from a re-analysis of the deposited data

Results flagged for a closer look

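In 7 of the 98 sets formed by 14 probes and 7 groups 1 array lay farther from its group than Dixon's 95% limit allows, a limit that chance passes in about 1 of 20 sets. The second Kdm4a probe was at -5.49 on TSA(+) replicate 5, with the others from -3.00 to -1.65, and at -3.52 on Spi-C 1.0 replicate 1, with the others from -2.44 to -2.30. Kdm4d was at -7.53 on OC replicate 1, with the others from -3.70 to -2.04. On Spi-C 0.1 replicate 1 Kdm4b was high at -1.02, with the others from -1.35 to -1.30, and Kdm4c was low at -0.54, with the others from -0.06 to -0.01. Suv39h2 was at 2.01 on TSA(-) replicate 2, with the others from 2.63 to 3.12. Trim28 was at 2.50 on Spi-C 1.0 replicate 3, with the others from 2.18 to 2.20. No cause was tested.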

How the results depend on the processing

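The number of member probes called was within 1.5 times the reported number under every alternative run, with these exceptions. With a change of at least 2-fold also required, 2 passed in TSA(-) against IVF and 0 in Spi-C NT against TSA(-), since the called changes were smaller. With slide as a block 2 passed in TSA(-) against IVF, and at an adjusted p of 0.05 there were 7 in TSA(+) against IVF, 6 of them higher. With replicate number as a block 0 passed in Spi-C NT against TSA(-), and no other count of member probes was changed by the block: 13 passed in IVF against OC and 4 in TSA(-) against IVF. The numbers did not pair the samples, since correlations of same-numbered deviations ran from -0.09 to 0.15, and in the paired fit Kdm4a was at -0.70, Setdb1 at -0.64, Trim28 at -0.47 and Ehmt2 at 0.38. Leaving out single arrays gave 13 to 13 calls in IVF against OC, 14 to 14 in TSA(-) against OC, 12 to 12 in OC against Cumulus, 4 to 4 in TSA(-) and 4 to 5 in TSA(+) against IVF, 0 to 0 between TSA(+) and TSA(-), 5 to 5 in Spi-C NT against TSA(-), 5 to 6 against IVF and 0 to 0 between doses. Kdm4a turned direction with the mean over its probes, to 0.51 in IVF and 0.39 in TSA(-), both against OC. The other reversals were of differences that had not passed. TSA(-) minus IVF for Kdm4d was -0.0041 under quantile normalization, -0.030 under normexp and -0.022 in the authors' values, and for Trim28 -0.030 with slide as a block. TSA(+) minus IVF was 0.12 for Kdm4a with median centring and 0.15 for the mean of the Suv39h2 probes. TSA(+) minus TSA(-) for Kdm4a was -0.083 with slide, -0.0080 with scan day as a block and -0.27 as the mean of its probes, for Kdm4d -0.32 and for Setdb1 0.034 with slide as a block, and for Setdb1 0.011 with median centring. Spi-C NT minus TSA(-) was 0.22 for Kdm4c and 0.022 for Ehmt1 in the fit with the replicate block, and -0.16 for Suv39h1 with median centring. With median centring Spi-C NT minus IVF was -0.012 for Suv39h2, and the dose difference of Kdm4c was -0.043, or -0.22 as the mean of its probes. Without single arrays TSA(-) minus IVF for Kdm4d ran from -0.089 to 0.085, Spi-C NT minus TSA(-) from -0.088 to 0.11 for Suv39h1 and from -0.21 to 0.0072 for Ehmt1, and the dose difference from -0.15 to 0.18 for Kdm4c, -0.13 to 0.33 for Kdm4d and -0.12 to 0.0061 for Ehmt2. Beyond the construction of a setting, causes were not tested. Low signal over background limits the OC levels of Suv39h1, Kdm4b, Kdm4c and the second Kdm4a probe.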
